A study of Mus musculus and Rattus norvegicus with 85 samples.

Results

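The comparison described here set 5 mice that had breathed 0.3 ppm chloroprene for 5 days against 5 mice that had breathed air with 0 ppm for the same time. The 10 arrays were chosen by the concentration, time and animal number in the sample titles, and are 10 of 45 mouse arrays and of 85 arrays in the mouse and rat series. Chloroprene is the volatile monomer of neoprene rubber. The study asked how gene expression in female lungs changes with the inhaled concentration, which ran from 0 to 90 ppm in the mice.

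The exposed mice carried the numbers 117 to 121 and the air controls the numbers 101 to 105. All were female B6C3F1/Crl mice, a hybrid strain, 10 weeks old at the start, with no engineered allele. Both groups sat in whole-body chambers for 6 hours a day on 5 days a week, with air as the vehicle. The right lung lobes were kept in RNAlater, their RNA was purified with Trizol and then RNeasy, and the biotin-labelled material of each mouse went to 1 Affymetrix Mouse430_2 array. The other mouse groups, at 2, 13 and 90 ppm for 5 days, served to place the values, with 5 mice each.

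Cytochrome P450 enzymes, Cyp2e1 among them, turn chloroprene into reactive epoxides, which epoxide hydrolase and conjugation to glutathione remove. Electrophiles of this kind release the transcription factor NRF2 from its inhibitor, and NRF2 then switches on enzymes that make glutathione and reduce quinones. Glucocorticoid hormones act through a nuclear receptor that induces a separate gene set in the lung, including Zbtb16, Fkbp5 and Tsc22d3, and lower lymphocyte numbers in blood and tissues. Heat shock factor induces chaperones when proteins unfold.

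Signals are log2 values, so a difference of 1 is a 2-fold change in array signal, and an array does not give molecule numbers. In bulk lung, fewer cells of a type and less RNA per cell cannot be told apart. The lung markers Sftpc, the surfactant protein of alveolar type 2 cells, and Scgb1a1, the secretory protein of club cells, lay between 15.24 and 15.33 and between 15.19 and 15.23 at 0.3 ppm, against 15.28 to 15.33 and 15.23 to 15.32 at 0 ppm, near the highest signals on the arrays. The tissue labelled lung thus carried its defining markers in all 10 mice. Thymus genes averaged 7.13 to 7.47 at 0.3 ppm and 7.31 to 7.40 at 0 ppm, and skeletal muscle genes 7.02 to 7.21 at 0.3 ppm and 6.99 to 7.22 at 0 ppm.

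1 array and 1 RNA measure stood apart. Mouse 120, labelled female like the rest, had an Xist signal of 8.06, against 12.54 to 13.42 in the other 44 mice. Xist is the RNA that coats the inactive X chromosome. Another of its 3 probe sets read 5.45 in mouse 120 and 8.73 to 11.97 in the others, and the one left, at 4.69 against 4.63 to 6.19, showed no gap. The X-linked demethylase gene Kdm5c, which escapes X inactivation, was lower in mouse 120 than in all 44 others on 5 of its 9 probe sets, for instance at 8.68 against 8.99 to 9.56, while the 3 of Eif2s3x and the 4 of Kdm6a lay within the range of the others. Of the 9 probe sets of Y-linked genes, 1 of Kdm5d was higher in mouse 120 than in all others, at 5.33 against 4.58 to 5.17, and 1 of Eif2s3y was lower, at 3.66 against 3.72 to 4.05. The highest signal of these 9 in any mouse was 5.54. Results are therefore also given without mouse 120. The A260 reading of the RNA, the absorbance used to measure concentration, was 2.337, 3.155, 3.276, 3.429 and 3.335 in mice 117 to 121, against 2.575, 2.323, 1.367, 1.307 and 2.131 in mice 101 to 105. It averaged 3.11 ± 0.44 at 0.3 ppm and 1.94 ± 0.57 at 0 ppm (SD, n = 5 each), a difference of 1.17 (exact permutation test, two-sided, p = 0.0159). Only mouse 117 of the exposed mice read within the control range.

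**Figure D1:**
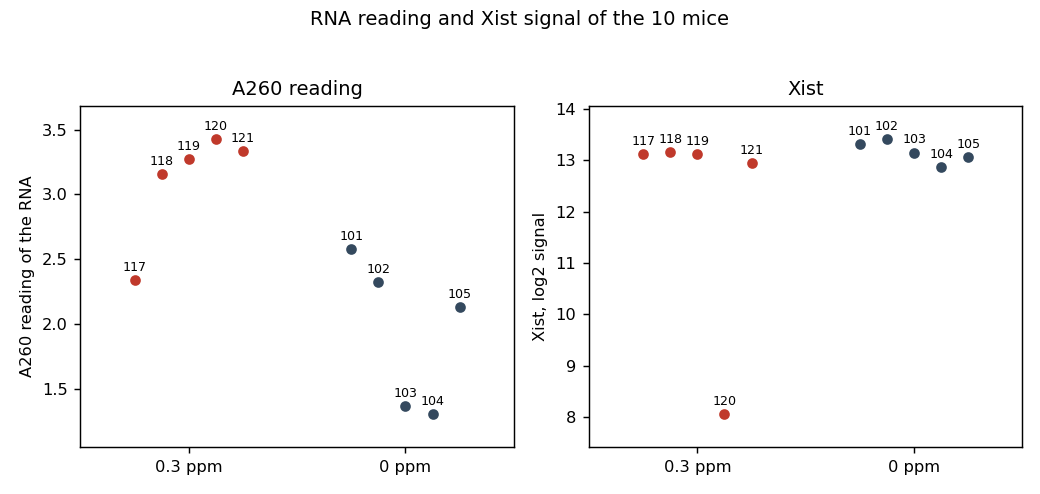
The A260 reading of the RNA (left) and the log2 signal of Xist (right) are plotted for each mouse, with the 0.3 ppm mice in red and the 0 ppm mice in dark blue, labelled by mouse number. Mouse 117, at 2.337, is the exposed mouse whose A260 reading lies among those of the air controls, and mouse 120, at 8.06, is alone in its Xist signal.

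RNA integrity numbers were 8.4 to 9.4 in the exposed mice and were given for 2 of the 5 controls. The 3' to 5' difference of the array's Gapdh and beta-actin controls, a measure of RNA degradation, averaged 0.237 ± 0.048 at 0.3 ppm and 0.190 ± 0.102 at 0 ppm (SD, n = 5 each; exact permutation test, two-sided, p = 0.468). Correlations between the 10 arrays ran from 0.976 to 0.996.

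No gene passed the test between 0.3 and 0 ppm. In the limma fit, 0 of 13796 genes (0%) reached an adjusted p under 0.05, and the smallest adjusted p was 0.585. At an unadjusted p under 0.05 there were 514 genes, which is 3.73% of those tested. Of these, 342 (2.48%) were higher and 172 (1.25%) lower at 0.3 ppm. The signals of all 5 exposed mice lay above those of all 5 controls in 105 genes (0.761%) and below them in 29 genes (0.210%). The median difference over all genes was 0.01, with a median standard error of 0.0991 on the log2 scale.

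The result depended on how the arrays were weighted. With limma's array weights, which give noisier arrays less influence, 188 genes had an adjusted p under 0.05, 139 of them higher and 49 lower. Mouse 117 (weight 0.589) and control 103 (0.575) then counted least among the 10 arrays and control 101 (4.57) most. With the spread estimated from the 5-day arrays alone, 1 gene passed, the guanine nucleotide exchange factor Mcf2l (0.68 ± 0.11, limma adjusted p = 0.0499). The unadjusted split also moved with the scaling: 226 genes were higher and 316 lower when each array was centred on its median, and 278 and 214 after quantile normalization. Values below are those of the equal-weight fit, and no gene is called from them.

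Zbtb16, a transcription factor that glucocorticoids induce, had the smallest p of all genes. Its log2 signal was 9.09, 11.37, 10.83, 11.47 and 12.07 in mice 117 to 121, against 9.62, 8.43, 8.08, 8.72 and 8.42 in mice 101 to 105. 4 of the 5 exposed mice lay above every control, and mouse 117 lay below the highest control. The difference was 2.31 ± 0.53 (SE of the limma fit, n = 5 each), a 4.97-fold higher signal with a 95% interval of 2.35 to 10.5 (limma adjusted p = 0.585). A second probe set of Zbtb16 gave a difference of 2.03 and another 0.27.

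Fkbp5, a chaperone of the glucocorticoid receptor, read 9.05, 10.70, 10.36, 10.56 and 11.65 in mice 117 to 121, against 8.94, 8.96, 8.90, 9.39 and 9.13 in mice 101 to 105. Again mouse 117 sat inside the control range and the other 4 exposed mice above it, and the difference was 1.40 ± 0.42 (limma adjusted p = 0.772). Angptl4, an inhibitor of lipoprotein lipase, read 10.30, 10.66, 10.52, 10.30 and 11.01 at 0.3 ppm, against 9.72, 9.79, 10.03, 9.82 and 10.09 at 0 ppm. Here the groups did not overlap, and the difference was 0.67 ± 0.18 (limma adjusted p = 0.772).

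Of 31 measured genes of the glucocorticoid list, 15 were higher at an unadjusted p under 0.05 and 0 lower, against 2.48% and 1.25% of all genes. The same shares are the background for counts at that threshold in the other lists, with all 10 mice. The median difference of the glucocorticoid list was 0.30, and of all genes 0.01. The transcription factor Klf15 averaged 11.41 ± 0.37 at 0.3 ppm and 10.69 ± 0.20 at 0 ppm (SD, n = 5 each). Fam107a, an actin-associated protein, averaged 11.22 ± 0.60 at 0.3 ppm and 10.13 ± 0.32 at 0 ppm, and the kinase gene Map3k6 9.33 ± 0.41 at 0.3 ppm and 8.53 ± 0.16 at 0 ppm. The groups overlapped for Klf15 and Fam107a and did not for Map3k6. Pdk4, the kinase that turns off pyruvate dehydrogenase, averaged 9.22 ± 0.48 at 0.3 ppm and 8.24 ± 0.29 at 0 ppm, also without overlap. The leucine zipper gene Tsc22d3 had a difference of 0.38 ± 0.19 and the clock gene Per1 one of 0.20 ± 0.21. Each exposed mouse had its own number of the 31 genes above all 5 controls: 8 in mouse 117, 23 in mouse 118, 21 in mouse 119, 14 in mouse 120 and 22 in mouse 121. A single mouse lies above or below all 5 controls in part of the genes without any effect. That share over all genes was not counted for each mouse. Such counts, here and below, therefore describe the lists without a background.

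**Figure D2:**
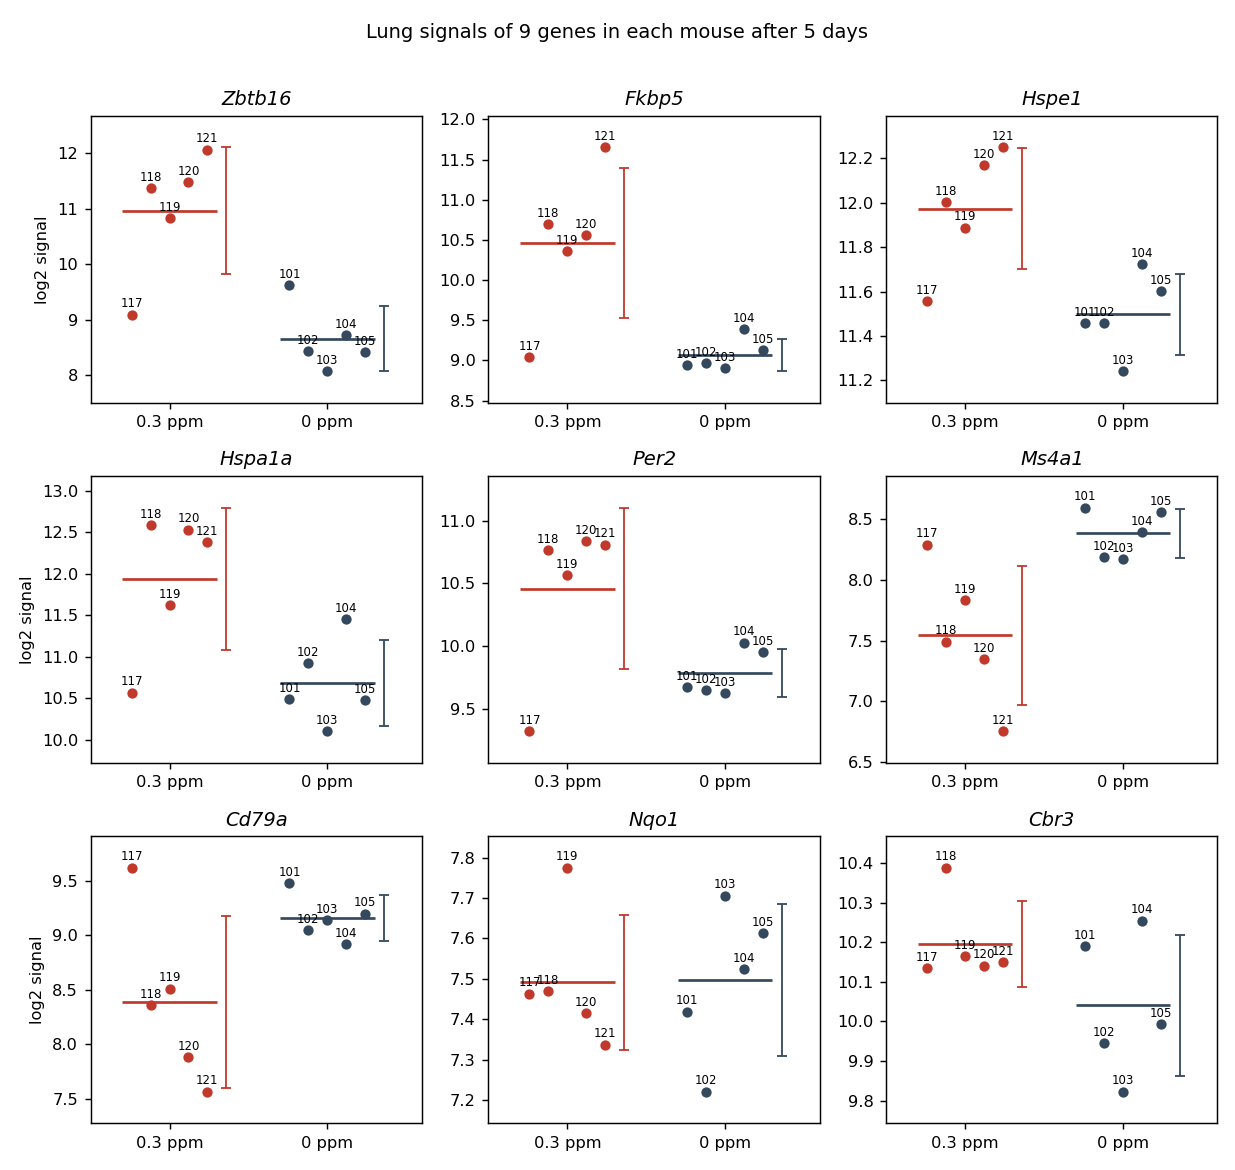
The log2 signals of 9 genes are plotted for each mouse, labelled by number, with the 0.3 ppm group left of the 0 ppm group. Horizontal lines are group means and the bars beside them 1 SD over 5 mice. Mouse 117 lies with the air controls for Zbtb16 (9.09), Fkbp5 (9.05), Hspa1a (10.57) and Ms4a1 (8.29), while both groups share 1 range for Nqo1.

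Chaperone genes of the heat shock response were higher in 4 of the 5 exposed mice. Of 21 measured, 13 were higher at an unadjusted p under 0.05 and 0 lower, and the median difference was 0.48. Mice 118, 119, 120 and 121 exceeded all 5 controls in 19, 18, 20 and 20 of the 21 genes. Mouse 117 did so in 1 gene and lay below all controls in 10.

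Hspe1, the mitochondrial co-chaperone HSP10, had the smallest p of the list. It read 11.56, 12.00, 11.89, 12.17 and 12.25 in mice 117 to 121, against 11.46, 11.46, 11.24, 11.72 and 11.60 in mice 101 to 105. The difference was 0.48 ± 0.14 (limma adjusted p = 0.772), with mouse 117 inside the control range. Hspa1a, the inducible HSP70, read 10.57, 12.59, 11.62, 12.53 and 12.39 at 0.3 ppm, against 10.49, 10.92, 10.10, 11.45 and 10.47 at 0 ppm. That is a difference of 1.25 ± 0.46 (limma adjusted p = 0.987), again with mouse 117 among the controls. Hspa1b, a near-identical copy whose probes may share its RNA, differed by 1.03 ± 0.43. The small chaperone Hspb1 averaged 13.42 ± 0.35 at 0.3 ppm and 12.89 ± 0.04 at 0 ppm, and Hsph1, the HSP110 exchange factor, 11.42 ± 0.96 at 0.3 ppm and 10.36 ± 0.25 at 0 ppm. Bag3, a co-chaperone of HSP70, was the member without overlap: 10.88, 11.16, 11.00, 11.09 and 11.03 at 0.3 ppm, against 10.60, 10.70, 10.44, 10.69 and 10.57 at 0 ppm (0.43 ± 0.13, limma adjusted p = 0.774).

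Heat shock factor binds inverted repeats of the letters GAA. RefSeq promoter windows (GRCm38.p6, 250 bases before to 50 after a start site) were found for 18 of the 21 chaperone genes and 25 of the 31 glucocorticoid genes. 3 adjoining units, written TTCNNGAANNTTC or its reverse complement GAANNTTCNNGAA so that both strands were searched, occurred in the windows of 4 of the 18 chaperone genes, in 0 of the 25 glucocorticoid genes and in 0.662% of 27025 genes. The windows of Hspe1 and Chordc1, a co-chaperone of HSP90, are printed because both genes were among the 13 above, with the matched letters in capitals. The Hspe1 window also lies before Hspd1, its partner HSP60, which is read from the other strand and differed by 0.41 ± 0.24. Hspd1 is also among the 4 genes, through the same matched letters, so this stretch is counted for both genes. Matches that overlap are printed as 1 run of capitals.
Hspe1, chr1:55087898-55088197, plus strand: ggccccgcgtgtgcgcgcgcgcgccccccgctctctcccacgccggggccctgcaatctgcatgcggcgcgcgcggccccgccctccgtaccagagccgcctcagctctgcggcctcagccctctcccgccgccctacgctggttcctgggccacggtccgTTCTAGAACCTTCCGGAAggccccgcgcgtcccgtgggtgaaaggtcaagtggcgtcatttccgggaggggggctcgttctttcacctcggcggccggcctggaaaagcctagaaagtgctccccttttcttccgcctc
Chordc1, chr9:18292017-18292316, plus strand: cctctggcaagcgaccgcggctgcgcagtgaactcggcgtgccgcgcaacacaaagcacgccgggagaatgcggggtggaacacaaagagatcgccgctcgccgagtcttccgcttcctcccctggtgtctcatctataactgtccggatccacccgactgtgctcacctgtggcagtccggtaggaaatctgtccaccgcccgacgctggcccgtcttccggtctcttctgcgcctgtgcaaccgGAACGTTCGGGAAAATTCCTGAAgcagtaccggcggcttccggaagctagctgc

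The palindrome bound by the glucocorticoid receptor, written GNACANNNTGTNC and the same on both strands, occurred in the windows of 4 of the 25 glucocorticoid genes, in 0 of the 18 chaperone genes and in 0.537% of all 27025 genes. The window of Fam107a is shown because its signal was 2.13-fold higher at 0.3 ppm, with the match in capitals.
Fam107a, chr14:8309728-8310027, minus strand: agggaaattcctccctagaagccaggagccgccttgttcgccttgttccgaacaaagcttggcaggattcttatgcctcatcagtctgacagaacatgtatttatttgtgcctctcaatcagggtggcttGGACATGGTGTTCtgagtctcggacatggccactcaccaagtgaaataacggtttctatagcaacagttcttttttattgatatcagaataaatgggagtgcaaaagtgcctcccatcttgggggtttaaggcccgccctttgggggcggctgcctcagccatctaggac

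A match is a description of these letters and does not show that a factor was bound. Genes of the unfolded protein response in the endoplasmic reticulum had 5 of 24 members higher at an unadjusted p under 0.05 and 0 lower, with a median difference of 0.09, and 3 were higher without mouse 120. Herpud1, which helps to degrade proteins of that compartment, averaged 12.94 ± 0.23 at 0.3 ppm and 12.57 ± 0.12 at 0 ppm. The folding factors Creld2 and Manf differed by 0.33 ± 0.11 and 0.31 ± 0.10 (limma adjusted p = 0.788 and 0.861).

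The clock genes, which keep daily time in most cells, had 7 of 20 members higher and 0 lower, with a median of 0.20. Per2, a repressor of the clock, read 9.32, 10.76, 10.57, 10.83 and 10.81 in mice 117 to 121, against 9.67, 9.65, 9.63, 10.03 and 9.95 in mice 101 to 105. Mouse 117 lay below every control and the other 4 above every control. The mitotic kinase Wee1, which the clock drives, differed by 0.44 ± 0.14 and the repressor Cry2 by 0.25 ± 0.09. Nr1d1 and Dbp, also driven by the clock, had differences of -0.09 ± 0.22 and -0.18 ± 0.20. The hour of killing was not among the labels used here, so its part was not tested.

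Genes of B lymphocytes were lower in 4 of the 5 exposed mice. Of 21 measured, 14 were lower at an unadjusted p under 0.05 and 0 higher, and the median difference was -0.48. Ms4a1, which encodes the surface protein CD20, read 8.29, 7.49, 7.83, 7.35 and 6.75 in mice 117 to 121, against 8.59, 8.19, 8.17, 8.39 and 8.56 in mice 101 to 105. Mouse 117 lay inside the control range and the other 4 below it (-0.84 ± 0.30, limma adjusted p = 0.974). Cd79a, a signalling chain of the B cell receptor, read 9.62, 8.36, 8.51, 7.88 and 7.57 at 0.3 ppm, against 9.48, 9.05, 9.14, 8.92 and 9.20 at 0 ppm. Here mouse 117 was above all controls and the other 4 were below them. Fcer2a, the low-affinity IgE receptor, averaged 6.64 ± 0.31 at 0.3 ppm and 7.10 ± 0.13 at 0 ppm, and Tnfrsf13c, the receptor for the survival factor BAFF, 6.70 ± 0.42 at 0.3 ppm and 7.11 ± 0.13 at 0 ppm. Jchain, the joining chain of secreted antibodies, averaged 8.91 ± 0.36 at 0.3 ppm and 9.48 ± 0.37 at 0 ppm. Siglecg, an inhibitory receptor of B cells, had the smallest p of all lower genes (-0.42 ± 0.12, limma adjusted p = 0.772).

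The count of B cell genes rested on single animals. It was 3 of 21 without mouse 120, 3 without mouse 121, 5 without control 101 and 15 without mouse 117. In the heat shock list the count was 8 of 21 without mouse 121, 9 without mouse 120 and 17 without mouse 117. In the glucocorticoid list it was 10 of 31 without mouse 121, 16 without mouse 120 and 17 without mouse 117. In the clock list it was 10 of 20 without mouse 117 and 6 without mouse 120. Without mouse 117, 478 genes were higher and 445 lower at an unadjusted p under 0.05, and still 0 had an adjusted p under 0.05 in the limma fit; Zbtb16 came closest, at 0.0722. Without mouse 120, 359 were higher and 121 lower, again with 0 called. With the A260 reading as a covariate, 13 glucocorticoid and 11 heat shock genes were higher and 9 B cell genes lower at that threshold, and the differences were 1.94 for Zbtb16, 1.32 for Fkbp5, 1.55 for Hspa1a and -0.82 for Ms4a1.

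T and natural killer cell genes split the exposed mice. Of 29 measured, 2 were lower at an unadjusted p under 0.05 and 0 higher, with a median of -0.13. Without mouse 117, 7 were lower and the median was -0.32, and without mouse 120 or mouse 121, 0 were lower and the median was -0.05 or -0.01. The count was also 0 without control 101 or 104, and 1 without mouse 118 or control 105. Mouse 117 exceeded all 5 controls in 27 of the 29 genes. Mice 120 and 121 lay below all controls in 24 and 27 of them. The mean of the list was 0.45 above that of the controls in mouse 117, and differed by -0.16, -0.02, -0.40 and -0.61 in mice 118 to 121, against -0.07 to 0.04 among the controls. Ccr7, the homing receptor of naive T cells and B cells, read 9.20, 8.23, 8.38, 7.56 and 7.13 at 0.3 ppm, against 8.96, 8.42, 8.54, 8.65 and 8.72 at 0 ppm. The activation marker Cd69 had a difference of -0.42 ± 0.19.

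Genes of MHC class II, which present antigens on B cells, dendritic cells and macrophages, moved with the lymphocyte genes mouse by mouse. 1 of 9 was lower at an unadjusted p under 0.05 and 0 higher, against 1.25% and 2.48% of all genes, with a median of -0.11. Mice 118 to 121 lay below all controls in 9, 4, 7 and 8 of the 9 genes, and mouse 117 above all controls in 8. Of 13 monocyte genes, 1 was lower and 0 higher, with a median of -0.19. Mice 118 to 121 lay below all controls in 4, 9, 8 and 10 of these, and mouse 117 above all controls in 7. Without mouse 117, 4 genes of each list were lower at that threshold. Over all genes, the lower ones then numbered 445, against 172 with all mice. Interferon response genes were above all controls in 27 of 32 in mouse 117, and in 1, 7, 5 and 2 of 32 in mice 118 to 121.

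**Figure D3:**
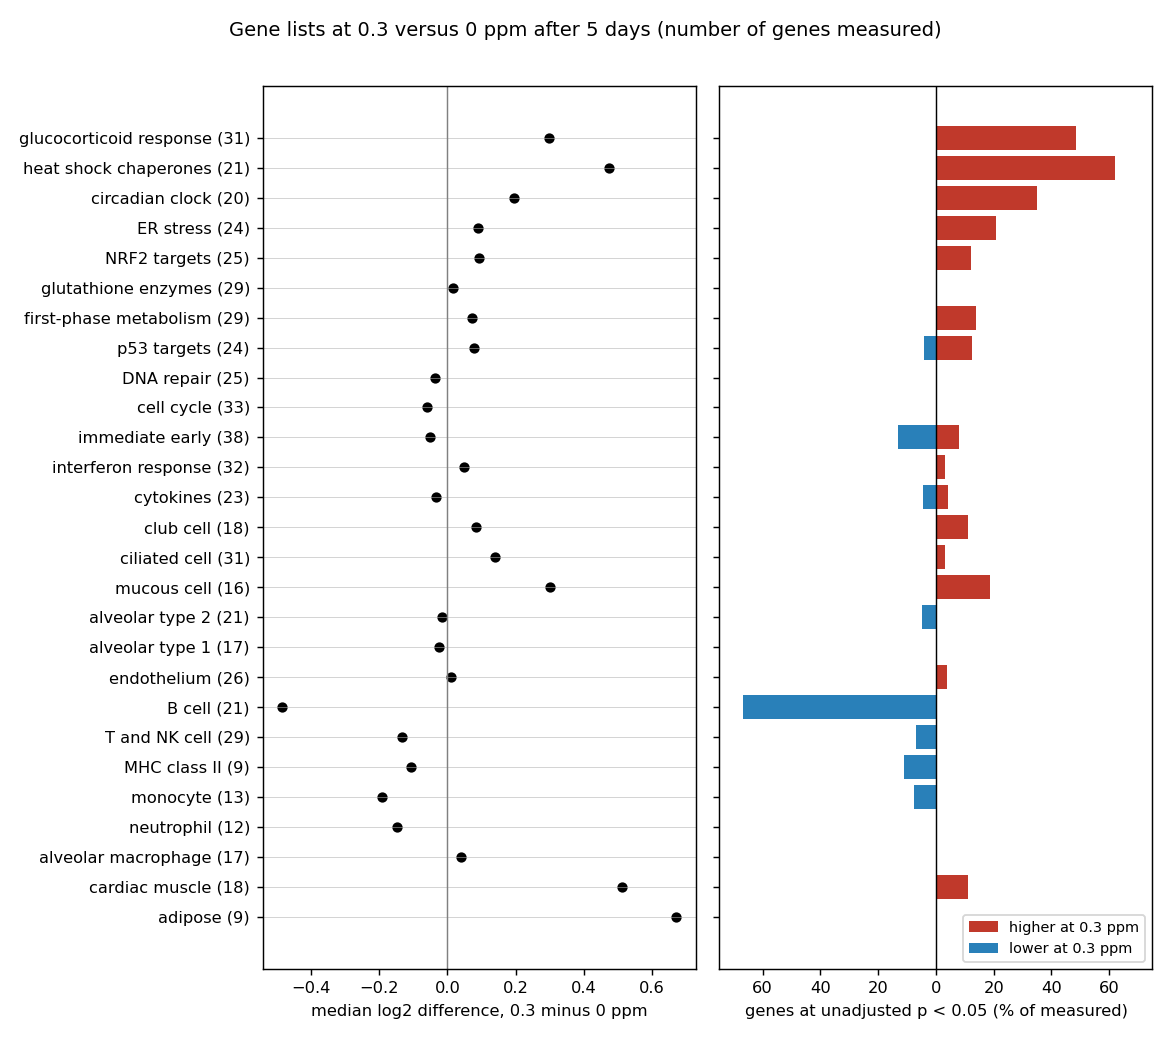
For gene lists of pathways and cell types, the left panel gives the median log2 difference between 0.3 and 0 ppm and the right panel the share of measured genes at an unadjusted p under 0.05, higher in red and lower in blue. Heat shock chaperones (13 of 21) and glucocorticoid response genes (15 of 31) have the longest red bars and B cell genes (14 of 21) the longest blue bar, where 2.48% and 1.25% of all genes are higher and lower.

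Genes of the NRF2 pathway had smaller differences. Of 25 measured, 3 were higher at an unadjusted p under 0.05 and 0 lower, with a median difference of 0.09. The count was 6 without mouse 117 and 1 without mouse 118 or control 103. Of the 25, 21 had a positive difference, against 52.9% of all genes. Mice 118 to 121 exceeded all 5 controls in 11, 8, 8 and 9 of the 25, and mouse 117 in 5. The list means of mice 118 to 121 were 0.14, 0.11, 0.12 and 0.10 above that of the controls, higher than in any control. Mouse 117 was at 0.03, and the controls ran from -0.05 to 0.09. Nqo1, a quinone reductase, read 7.46, 7.47, 7.77, 7.42 and 7.34 in mice 117 to 121, against 7.42, 7.22, 7.71, 7.52 and 7.61 in mice 101 to 105. The 2 groups overlapped over most of their range, and the 95% interval of the difference ran from -0.27 to 0.26. Cbr3, a carbonyl reductase, read 10.13, 10.39, 10.16, 10.14 and 10.15 at 0.3 ppm, against 10.19, 9.94, 9.82, 10.25 and 9.99 at 0 ppm, with an interval from -0.09 to 0.40. Txnrd1, thioredoxin reductase, differed by 0.01 ± 0.08, and Gclc and Gclm, the subunits of the enzyme that starts glutathione synthesis, by 0.09 ± 0.13 and 0.14 ± 0.09. The glutathione transferase Gsta2 differed by 0.19 ± 0.15 and the haem oxygenase Hmox1 by 0.17 ± 0.15. Of 29 glutathione enzymes measured, 0 were higher and 0 lower at an unadjusted p under 0.05, against 2.48% and 1.25% of all genes. At these shares, a count of 0 in a list this small says little.

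Of 29 genes of first-phase metabolism, the enzymes that act first on foreign compounds, 4 were higher and 0 lower at an unadjusted p under 0.05, with a median difference of 0.07. Mice 118 to 121 exceeded all 5 controls in 17, 10, 14 and 16 of the 29 genes, while mouse 117 did so in 1 and lay below all controls in 11. The count of 4 was 8 without mouse 117, 0 without mouse 118, and 2 without mouse 121, control 102 or control 103. Most club cell markers, of which 2 of 18 were higher, moved with them. Mice 118 to 121 exceeded all controls in 11, 9, 14 and 14 of the 18. Mouse 117 lay below all controls in 10. Scgb1a1 went the other way: all 5 exposed mice lay below all 5 controls, with a difference of -0.05. Its signal was near the highest on the arrays. The part of club cell markers in the result was not tested. Cyp2e1 read 9.64, 9.89, 9.99, 9.49 and 9.11 at 0.3 ppm, against 10.10, 9.66, 8.52, 9.48 and 9.17 at 0 ppm, with the exposed mice inside the control range. Cyp2f2, the abundant P450 of club cells, averaged 14.88 ± 0.05 at 0.3 ppm and 14.86 ± 0.02 at 0 ppm. Ephx1, the microsomal epoxide hydrolase, differed by 0.13 ± 0.05 (limma adjusted p = 1) and the aldehyde dehydrogenase Aldh3a1 by 0.39 ± 0.17. The carboxylesterases Ces1f and Ces1g differed by 0.35 ± 0.14 and 0.31 ± 0.18.

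The other concentrations place these values. The 0.3 ppm mice were tested against the 2 ppm mice in the same fit, and 11 genes (0.0797%) were higher and 0 (0%) lower at 2 ppm by limma's adjusted p. 6 of the 11 belong to the NRF2 list. Nqo1 was 0.95 ± 0.13 higher at 2 ppm (adjusted p = 4.57e-05), Cbr3 0.89 ± 0.12 (adjusted p = 4.57e-05), Ces1g 1.26 ± 0.18 (adjusted p = 6.33e-05) and Txnrd1 0.52 ± 0.08 (adjusted p = 9.59e-05). None of the glucocorticoid, heat shock, clock or B cell genes was among the 11. With 0.0797% of all genes called, a count of 0 in lists this small says little about them. Against 0.3 ppm, 722 genes (5.23%) were higher and 638 (4.62%) lower at 90 ppm, including 22 of the 25 NRF2 genes, all higher.

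Zbtb16 averaged 8.65 at 0 ppm, 10.97 at 0.3 ppm, 10.93 at 2 ppm, 11.11 at 13 ppm and 11.64 at 90 ppm. Its level at 0.3 ppm was thus close to that at 2 ppm, with a difference of -0.04 and a 95% interval from -1.12 to 1.04. Nqo1 averaged 7.50, 7.49, 8.45, 9.11 and 9.66 over the same 5 concentrations. Its mean at 0.3 ppm lay within 0.01 of that of the air controls, and each higher concentration gave a higher mean. Hspa1a averaged 10.69, 11.94, 12.57, 12.06 and 10.23, so its mean at 90 ppm was the lowest of the 5, and it was -1.71 against 0.3 ppm (limma adjusted p = 0.0113).

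By list, the medians of the differences from the shared 0 ppm controls were 0.30, 0.26, 0.26 and 0.60 for glucocorticoid genes at 0.3, 2, 13 and 90 ppm. They were 0.48, 0.59, 0.58 and 0.07 for heat shock genes, -0.48, -0.49, -0.48 and -0.77 for B cell genes and 0.09, 0.43, 0.67 and 1.11 for NRF2 genes. These differences share their control mice, so a deviation of the 5 controls would enter all of them. Among the 13 ppm mice, 1 animal, mouse 149, also lay near the controls, with list means 0.10 above them for glucocorticoid genes and 0.12 for heat shock genes.

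**Figure D4:**
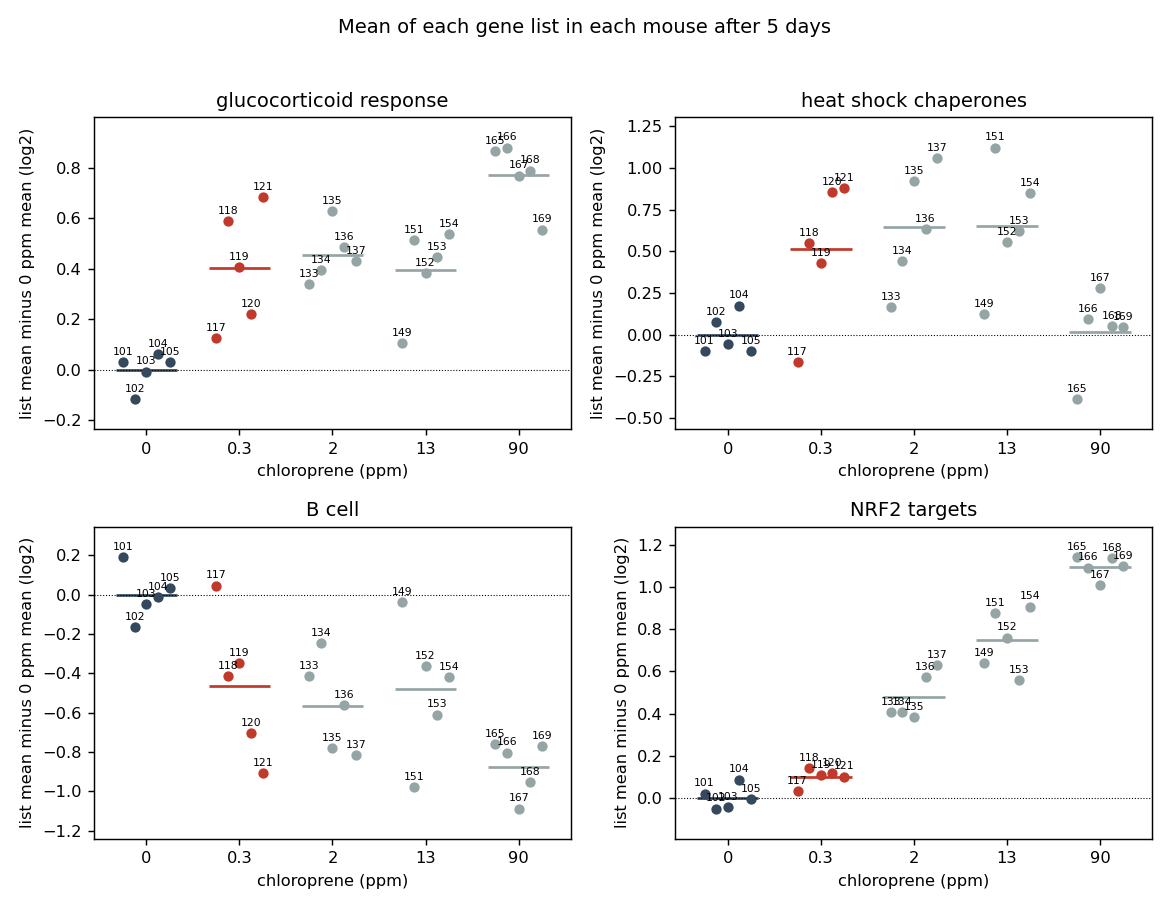
The mean log2 signal of 4 gene lists, less the mean of the 0 ppm mice, is plotted for each mouse against the chloroprene concentration from 0 to 90 ppm after 5 days, with 0.3 ppm in red, 0 ppm in dark blue and horizontal lines at group means. In the heat shock and B cell lists, the 0.3 ppm mice other than mouse 117 lie within the range of the 2 and 13 ppm mice. In the glucocorticoid list, mice 117 and 120 lie at 0.13 and 0.22, below the 2 ppm mice at 0.34 to 0.63. In the NRF2 list, the 0.3 ppm mice stay nearer to the air controls.

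Among single genes outside these lists, Jade2, a chromatin-associated zinc finger protein, averaged 11.37 ± 0.17 at 0.3 ppm and 10.88 ± 0.16 at 0 ppm. Mcf2l averaged 11.37 ± 0.25 at 0.3 ppm and 10.69 ± 0.06 at 0 ppm. Both genes separated the groups without overlap on the probe set used, and mouse 117 lay with the exposed mice. A second probe set of Jade2 gave a difference of 0.15, against 0.50 for the one used. The 10 smallest p among the higher genes also included Peli2, Klf10, Shroom2, Angptl4, Rad51c and Slc7a6, with differences of 0.42, 0.75, 0.41, 0.67, 0.36 and 0.24 (limma adjusted p between 0.655 and 0.772). Besides Siglecg and Ms4a1, the corresponding lower genes were Slc25a53, Krtap26-1, Astl, Lpar6, Akr1c21, Igkv8-30, Hmmr and Epb41l5, with differences between -0.69 and -0.20.

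Immediate early genes, which respond to stimulation within minutes, had 3 of 38 members higher and 5 lower at an unadjusted p under 0.05, with a median of -0.05. The 5 lower became 7 without mouse 117, 3 without mouse 119 and 1 without mouse 120, mouse 121 or control 101. Klf10, a transcription factor also induced by TGF-beta, read 9.80, 9.93, 10.21, 10.69 and 10.28 at 0.3 ppm, against 9.57, 9.57, 9.09, 9.48 and 9.47 at 0 ppm, without overlap. Nr4a1, an orphan nuclear receptor, read 11.60, 11.45, 10.70, 9.78 and 10.15 at 0.3 ppm, against 12.02, 11.67, 11.43, 11.96 and 11.55 at 0 ppm (-0.99 ± 0.38, limma adjusted p = 1). 3 exposed mice were below all controls and mice 117 and 118 within their range. Fos had a difference of -0.34 ± 0.35.

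Lists of damage and growth genes differed in how many members reached an unadjusted p under 0.05. Of 24 targets of p53, 3 were higher and 1 lower at this threshold, against 2.48% and 1.25% of all genes. Without mouse 121, 1 was higher. Fas, a death receptor, averaged 10.35 ± 0.29 at 0.3 ppm and 9.86 ± 0.11 at 0 ppm, and Cdkn1a, the cyclin kinase inhibitor p21 that is also in the glucocorticoid list, 10.74 ± 0.34 at 0.3 ppm and 10.34 ± 0.16 at 0 ppm. Of 25 DNA repair and 33 cell cycle genes, 0 were higher and 0 lower at that threshold. With 3.73% of all genes reaching it, a count of 0 in lists this small says little about them. The proliferation marker Mki67 averaged 6.70 ± 0.24 at 0.3 ppm and 6.63 ± 0.46 at 0 ppm, near the filter signal of 6.67. Its list leaned the other way: 7 of the 33 cell cycle genes had a positive difference, against 52.9% of all genes. The median difference of that list was -0.06.

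Genes of the mucous cell list were low on average in 2 of the controls. Reg3g, an antibacterial lectin, read 9.47, 10.73, 11.15, 10.63 and 10.69 in mice 117 to 121, against 10.05, 10.27, 7.89, 8.71 and 7.04 in mice 101 to 105 (1.74 ± 0.62, limma adjusted p = 0.974). Bpifb1, a secreted airway protein, read 10.56, 11.74, 12.10, 11.52 and 11.74 at 0.3 ppm, against 11.61, 11.60, 9.03, 10.95 and 8.23 at 0 ppm, so controls 103 and 105 were lowest for both genes. The trefoil peptide Tff2 differed by 0.65 ± 0.26. Of 16 mucous cell genes, 3 were higher and 0 lower at an unadjusted p under 0.05, with a median of 0.30. The count was 6 without mouse 117, 5 without control 102 and 1 without control 105.

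Markers of heart muscle and fat varied between mice in both groups. Of 18 cardiac genes, 17 had a positive difference, against 52.9% of all genes, and 2 an unadjusted p under 0.05. That count was 11 without control 101, 4 without mouse 120 or 121, and 0 without mouse 118, mouse 119, control 103 or control 105. Their list means lay between 8.95 and 10.12 at 0.3 ppm and between 8.31 and 9.82 at 0 ppm. Mice 117 to 121 exceeded all 5 controls in 0, 16, 3, 1 and 1 of the 18. The myosin gene Myh6 read 10.73, 12.24, 11.65, 10.66 and 10.35 at 0.3 ppm, against 11.78, 10.39, 8.96, 10.70 and 9.26 at 0 ppm, so no mouse was without it. The means of 9 adipose genes lay between 8.21 and 10.01 at 0.3 ppm and between 7.46 and 8.75 at 0 ppm. Mice 117 to 121 exceeded all controls in 1, 3, 8, 3 and 0 of these 9. Controls 103 and 105 had the 2 lowest means in both lists and in the mucous list, and the part of tissue composition in the mucous result was not tested. Of the mast cell list, 1 of 6 genes was higher at an unadjusted p under 0.05: Gata2, a transcription factor that endothelium also uses (0.29 ± 0.10).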

How the data were processed

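Lung RNA of 45 mice was measured on Affymetrix Mouse430_2 arrays, and the 5 mice at 0.3 ppm and 5 at 0 ppm after 5 days were compared. Per probe set, the authors deposited normalized signals on the log2 scale, which were used unchanged; the normalization method is not given in the sources used here. Of 45101 probe sets, 34958 carried 1 gene symbol, and 34754 of these matched RefSeq (GRCm38.p6) by Entrez identifier. Probe sets with signals above 6.67, the 40th percentile of all values, on 5 or more arrays entered the tests. The one of highest mean stood for its gene. limma 3.58.1 in R 4.3.3 fitted a mean per group over all 45 mouse arrays, with Benjamini-Hochberg adjustment over 13796 genes at 0.05, two-sided. The script was tested on simulated data. The number of arrays limits the precision.

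Genes, comparisons and the 44 gene lists were chosen with earlier results of these data known. Named were the 10 genes with the smallest p in each direction, up to 3 members of a list by smallest p and a fixed set of metabolic, stress and lung genes. 1 gene that this rule names is not reported here. Fam107a, Map3k6, Hspa1b, Hsph1, Hspd1, Chordc1, Cd79a, Jchain, Pam and Ucp1, the promoter windows printed and the results without mice 117 and 120 were chosen after their values were seen. The titles give each mouse a number of its own, which pairs no animals across groups, and the labels do not say whether cages or chambers were shared. Alternatives were other filters, scalings, probe set rules, spread estimates, array weights, RNA covariates and leaving out each mouse.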

Additional observations from a re-analysis of the deposited data

Results flagged for a closer look

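In 132 groups of 5 values, the highest or lowest mouse was checked for a gap to the others that is large for the range of the group. Such a gap occurred in 12. Chance gives one in about 1 group in 20, but the tally cannot be read against that rate, since Pam and Ucp1, 2 of the 12, were chosen after their values were seen. Mouse 117 stood apart at 0.3 ppm in 4 measures: it was lowest for Per2 (9.32, against 10.57 to 10.83 in the other 4), for Wee1 (9.84, against 10.53 to 10.72), for Cyp2f2 (14.79, against 14.89 to 14.92) and for the A260 reading (2.337, against 3.155 to 3.429). Mouse 118 was highest for Cbr3, at 10.39, against 10.13 to 10.16 in the other 4. Mouse 120 was lowest for Xist, at 8.06, against 12.95 to 13.16. Mouse 119 was highest for Pam, an enzyme that amidates peptide hormones, at 12.15, against 7.70 to 8.31. It was also highest for Ucp1, the uncoupling protein of brown fat, at 10.61, against 6.13 to 6.85, and its mean over 9 adipose genes, 1.87 above that of the controls, was the highest of the 10 mice. Among the air controls, mouse 103 was lowest for Klf10 (9.09, against 9.47 to 9.57) and highest for Scgb1a1 (15.32, against 15.23 to 15.25) and Sftpc (15.33, against 15.28 to 15.29). Mouse 105 had the smallest 3' to 5' difference, 0.0121, against 0.207 to 0.272. The causes were not tested.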

How the results depend on the processing

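No paired analysis was possible because the mouse numbers are not shared between groups. Between 0.3 and 0 ppm, 0 genes were called under each alternative except array weights (188 genes) and the 5-day arrays alone (1 gene, Mcf2l). At an unadjusted p under 0.05, higher and lower genes numbered 377 and 279 without a filter, 309 and 106 with a filter at the 60th percentile, 226 and 316 after median centring, and 761 and 754 over all probe sets, of which more were tested. They numbered 551 and 273 with arrays of the 2 groups only and 1018 and 820 with array weights. 180 were higher with the RNA integrity number as covariate, for which 3 controls had to be dropped, and 86 lower with the A260 reading as covariate. Leaving out each mouse in turn gave 240 to 478 higher and 97 to 445 lower genes, and without mice 117 and 120 there were 456 and 300. Between 2 and 0.3 ppm, 5 genes were called with arrays of the 2 groups only, 34 with array weights and 7 to 13 without single mice, the fewest without mouse 137. Between 90 and 0.3 ppm, 2048 were called over all probe sets, 774 with arrays of the 2 groups only, 2739 with array weights and 914 to 1661 without single mice.

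Differences were recomputed for 64 of the genes with values in the text, which leave out Peli2, Shroom2, Rad51c and Slc7a6. Of 1558 recomputed differences, 1501 kept their sign and side of the threshold, 29 passed it (28 with array weights) and 28 changed sign. No gene was called in the equal-weight fit, so none of the sign changes could be of a called gene. Txnrd1 was -0.0115 after quantile normalization, -0.0177 after median centring, -0.0599 as the mean of its probe sets, -0.0104 with the 3' to 5' difference and -0.00244 with the A260 reading as covariate, -0.102 and -0.0862 on its other probe sets, and -0.0201 to 0.0243 without single mice. Nqo1 was 0.136 with array weights, 0.0234 with the 3' to 5' difference, 0.144 with the A260 reading, 0.0300 without mice 117 and 120, and -0.0757 to 0.0472 without single mice. Cyp2f2 was -0.00768 after median centring and Sftpc 0.00107 with array weights. With the RNA integrity number, Nr1d1 was 0.179, Ces1g -0.0110 and Mki67 -0.0507, and Mki67 was -0.0343 with the A260 reading and -0.0699 to 0.229 without single mice. The causes were not tested. The limits are 5 mice a group, an A260 reading that differed between the groups, and 2 exposed mice that stood apart.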
